A study of Mus musculus with 4 samples.

Results

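The sites described are Fos summits that lie where the boundaries of neighbouring genes come together. A summit was taken when it lay within 1 kb of a boundary, the start or the end of the annotated span, of at least 2 different protein-coding genes on chromosomes 1 to 19. The rule found 4366 such summits in 2131 peak regions, out of 176597 autosomal summits in 106773 regions and 178981 summits in the whole list. They are set against the 26090 summits with exactly 1 protein-coding gene boundary within 1 kb. Of the 4366 summits, 4266 had 2 genes within reach, 95 had 3, and the remaining 5 lay in the Ugt1a locus, with 7 or 9 genes each.

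Fos was profiled in mouse colon by CUT&Tag, in which an antibody tethers the transposase Tn5 to its target so that nearby DNA is cut and tagged. Of the 4 libraries, 2 came from wild-type (WT) mice labelled colitis recovered, which had drunk 1 to 1.5% DSS (dextran sodium sulfate, which damages the lining of the colon) for 7 days in each of 3 cycles, each followed by 10 days without it, and were sampled 22 days after the final cycle. The other 2 came from WT mice labelled as healthy controls, and the batch label was the same for every library. Colons were soaked in 4 mM EDTA with 10% serum for 30 min before the mucosa was scraped, so the label colonic epithelium names a scraped layer and not sorted cells.

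The values came from 1 peak list given for the series, with no value per library. Which of the 4 libraries it holds was not stated. Recovered and healthy mice therefore were not compared here, no value below carries a replicate error, and every comparison is a description without a test. A library without the Fos antibody was not analysed here, so the part of the signal that Tn5 gives at open chromatin by itself was not measured. The fold of a summit is the authors' enrichment over the background of the peak caller. It moved in whole steps of 0.241, which gave the number of fragments over each summit, the pileup, on a background of 3.16 fragments. Intervals are 95% intervals for counting or sampling of summits only. Summits of 1 region share fragments, so intervals over summits are too narrow. Over all autosomal protein-coding genes, 13070 of 20661 (63.3%) had a summit at a boundary. Of 10 colonic epithelial marker genes, 10 had a summit at a boundary, with a median highest fold of 81.5. Among other cell types, summits were found at 2 of 5 leukocyte markers, with folds of 104.2 at Itgam and 4.81 at Cd4 (Ptprc and Cd3e were among those without), 0 of 3 endothelial and 0 of 2 muscle markers, 2 of 3 fibroblast markers at a fold of at most 6.98, and 1 of 2 neuronal markers at a fold of 7.94.

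Fos is a leucine zipper protein that pairs with a Jun protein to form AP-1, a transcription factor that growth signals, stress and wounding induce in epithelia. Its motif was searched here as TGANTCA, with any base at N, which is broader than a preferred AP-1 site. Related zipper proteins of the CREB and ATF families prefer the cAMP response element (CRE) TGACGTCA. Mammalian genes often lie head to head, with a pair of starts firing in opposite directions out of a shared, mostly CpG-rich promoter, called a divergent or bidirectional promoter. Such pairs are common among housekeeping genes, including those of DNA repair and the mitochondrion. Elsewhere a start abuts the end of a neighbour, or the ends of a pair of genes converge.

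Start-to-start sites had the highest folds of the known arrangements, so 7 promoter windows of such sites are printed, each 250 bases before to 50 bases after a start, 5′ to 3′ on the strand of the named gene, from RefSeq on GRCm38.p6, the assembly that mm10 names. Capitals mark every match to TGANTCA or TGACGTCA. The first 3 are the windows with the highest summit fold among start-to-start sites that hold a TGANTCA match, the fourth is the highest with TGACGTCA alone, the fifth is the highest with neither, and the last 2 belong to well-known divergent pairs.
Tom1l2 (chr11:60352856-60353155, minus strand): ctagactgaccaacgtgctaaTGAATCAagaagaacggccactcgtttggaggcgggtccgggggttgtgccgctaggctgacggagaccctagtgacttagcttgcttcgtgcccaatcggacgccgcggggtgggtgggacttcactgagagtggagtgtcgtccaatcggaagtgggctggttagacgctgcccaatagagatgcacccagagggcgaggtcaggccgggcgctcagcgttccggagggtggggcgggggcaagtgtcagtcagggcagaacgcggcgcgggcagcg
Ddit3 (chr10:127290543-127290842, plus strand): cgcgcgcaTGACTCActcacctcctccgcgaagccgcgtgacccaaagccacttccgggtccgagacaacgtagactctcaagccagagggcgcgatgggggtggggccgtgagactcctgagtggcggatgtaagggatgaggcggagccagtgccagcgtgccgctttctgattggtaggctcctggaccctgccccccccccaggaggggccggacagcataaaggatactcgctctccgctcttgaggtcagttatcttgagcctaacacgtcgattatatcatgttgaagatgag
Myl12a (chr17:71002484-71002783, minus strand): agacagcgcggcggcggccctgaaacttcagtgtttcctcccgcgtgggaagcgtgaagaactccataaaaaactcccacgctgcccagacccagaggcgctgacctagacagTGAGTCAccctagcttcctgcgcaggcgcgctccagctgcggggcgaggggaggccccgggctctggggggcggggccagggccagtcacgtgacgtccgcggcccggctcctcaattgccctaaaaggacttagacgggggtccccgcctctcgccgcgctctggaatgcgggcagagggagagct
Slx4ip (chr2:136891344-136891643, plus strand): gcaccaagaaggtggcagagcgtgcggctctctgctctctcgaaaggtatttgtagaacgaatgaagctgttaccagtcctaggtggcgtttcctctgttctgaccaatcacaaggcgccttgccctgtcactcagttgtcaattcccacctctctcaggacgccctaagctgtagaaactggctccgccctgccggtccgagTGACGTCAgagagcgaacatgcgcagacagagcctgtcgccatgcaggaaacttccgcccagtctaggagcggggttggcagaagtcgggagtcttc
Ubxn6 (chr17:56079284-56079583, minus strand): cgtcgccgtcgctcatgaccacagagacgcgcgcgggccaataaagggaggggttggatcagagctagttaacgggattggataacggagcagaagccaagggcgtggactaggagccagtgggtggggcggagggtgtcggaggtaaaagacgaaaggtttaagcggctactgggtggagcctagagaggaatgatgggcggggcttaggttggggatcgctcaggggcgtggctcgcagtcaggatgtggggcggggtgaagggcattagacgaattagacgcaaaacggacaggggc
Npat (chr9:53536797-53537096, plus strand): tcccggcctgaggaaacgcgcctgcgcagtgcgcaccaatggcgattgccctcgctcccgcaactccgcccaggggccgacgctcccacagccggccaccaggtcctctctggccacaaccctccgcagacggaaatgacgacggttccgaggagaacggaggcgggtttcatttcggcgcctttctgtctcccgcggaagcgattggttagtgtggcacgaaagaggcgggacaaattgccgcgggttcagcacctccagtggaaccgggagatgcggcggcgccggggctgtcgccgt
Hspe1 (chr1:55087898-55088197, plus strand): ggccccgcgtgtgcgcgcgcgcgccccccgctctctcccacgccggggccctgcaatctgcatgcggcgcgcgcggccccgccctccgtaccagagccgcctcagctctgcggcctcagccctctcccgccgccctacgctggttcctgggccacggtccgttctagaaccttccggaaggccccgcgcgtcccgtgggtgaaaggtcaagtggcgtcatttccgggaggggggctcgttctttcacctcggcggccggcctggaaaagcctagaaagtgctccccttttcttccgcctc
The summit in the Tom1l2 window, shared with the cilium gene Drc3, had a fold of 225.4 and 936 fragments and lay at base 80 of the window, downstream of its TGANTCA match. That in the Ddit3 window, shared with Mbd6, had a fold of 203.5 at base 175, also away from the match near the 5′ end. Ddit3 encodes CHOP, a transcription factor of the stress response. The Myl12a window, of a myosin light chain gene next to the muscle gene Myom1, had a fold of 155.6 at base 79, and the Slx4ip window, next to Mkks, had 167.4 at base 262. The strongest of the 7, Ubxn6 beside Hdgfl2, reached 299.7 with 1245 fragments and held neither motif. On either strand its letters hold 2 matches to CCAAT and 3 to the GC box GGGCGG.

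Summits at 2 or more genes were stronger than summits at 1. Their median fold was 13.5 (interval 13.0 to 14.4, n = 4366), with quartiles of 6.01 and 35.5, a highest value of 375.2 and a median of 55 fragments. Summits at exactly 1 gene had a median fold of 9.86 (9.62 to 10.1, n = 26090), with quartiles of 5.05 and 25.0, a highest value of 394.7 and a median of 40 fragments. Summits at no boundary had a median of 6.25 (n = 146141). The medians stood in a ratio of 1.37 (1.31 to 1.47), while the interquartile ranges overlapped over most of their length. A fold of at least 38.0, which marks the strongest 10.0% of all autosomal summits, was reached by 1018 summits at 2 or more genes, or 23.3% (22.1 to 24.6%), against 4258 at exactly 1 gene, or 16.3% (15.9 to 16.8%). With autosomal summits split into 10 equal bins by fold, the share at 2 or more genes was higher in each stronger bin, with 1.03% in the weakest and 5.74% in the strongest. The share at exactly 1 gene rose in each stronger bin too, from 8.81% to 24.0%. When each region counted once, by its highest summit, the medians were 30.1 at 2 or more genes and 16.8 at exactly 1 gene.

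**Figure D1:**
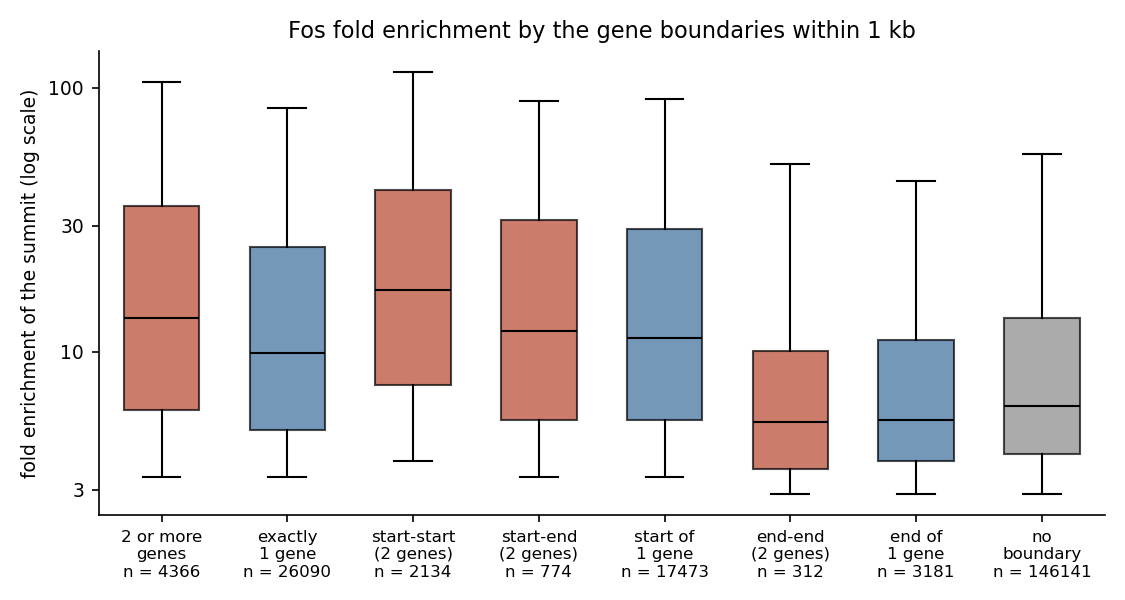
Fold enrichment of Fos summits (log scale) by the gene boundaries within 1 kb. Boxes span the quartiles with the median as a line and whiskers span percentiles 5 to 95; red marks 2 or more genes, blue 1 gene and grey no boundary. Start-to-start sites have the highest median (17.1) and end-to-end sites the lowest (5.41).

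Folds differed by which boundaries met. A gene's direction was known for 16456 of 20661 autosomal protein-coding genes (79.6%), which fixed the arrangement of the nearest 2 boundaries for 3220 of the 4366 summits. At the 2134 start-to-start summits the median fold was 17.1 (15.6 to 18.0), against 11.3 (11.1 to 11.8) at 17473 summits near a single start, a ratio of 1.51 (1.37 to 1.60). At the 774 start-to-end summits it was 12.0 (10.1 to 13.7), a ratio of 1.06 (0.889 to 1.21) to single starts. No difference was detectable for this class as a whole, which mixes summits nearer to a start with summits nearer to an end. At the 312 end-to-end summits it was 5.41 (5.05 to 6.01), against 5.53 (5.29 to 5.77) at 3181 summits near a single end, a ratio of 0.978 (0.902 to 1.10). Folds of at least 38.0 made up 27.2% of start-to-start, 21.2% of start-to-end and 8.01% of end-to-end summits, against 18.8% at single starts and 6.41% at single ends. Where a start and an end met, the 531 summits nearer to the start had a median of 16.4 (13.7 to 19.0), above the 11.3 of single starts. The 243 nearer to the end had 6.73 (6.01 to 7.70), above the 5.53 of single ends. Distances to the boundary were not matched in these comparisons. The 1146 summits without a known arrangement had a median of 12.0.

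The median at 2 or more genes exceeded that at exactly 1 gene on 18 of 19 chromosomes. The ratio was highest on chromosome 7, with 18.5 (n = 449) against 9.62 (n = 2037), and below 1 on chromosome 16 alone, with 10.1 (n = 133) against 11.2 (n = 822). Chromosomes 6, 8 and 4 had ratios of 1.05, 1.05 and 1.12. The share of folds of at least 38.0 was higher at 2 or more genes on 17 of 19 chromosomes, and lower on chromosome 8 (15.2% against 16.7%) and chromosome 18 (17.7% against 20.1%). Start-to-start summits exceeded single-start summits on all 18 chromosomes with directions, by 1.12 to 2.31 times.

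**Figure D2:**
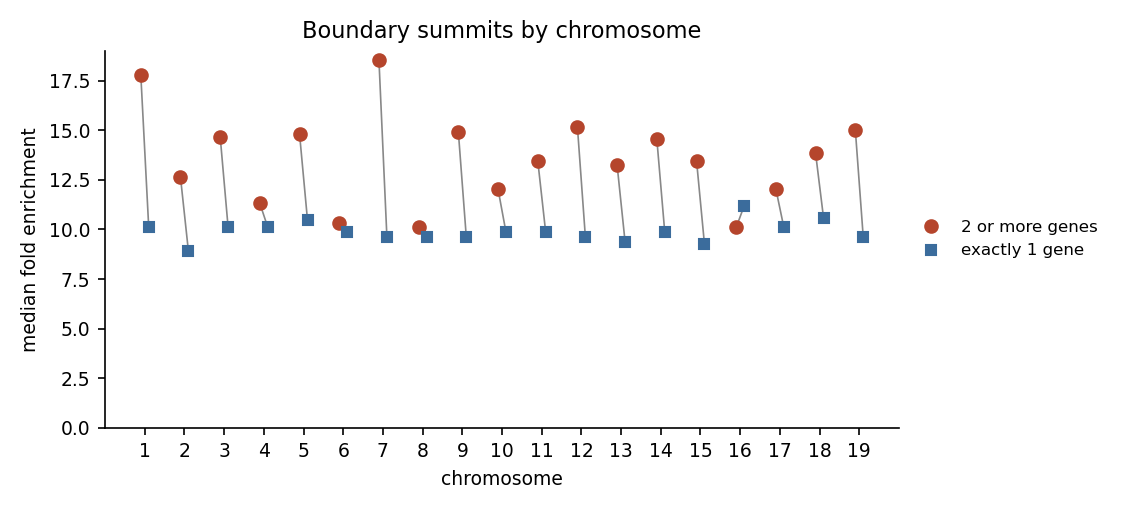
Median fold enrichment of summits at 2 or more genes (red circles) and at exactly 1 gene (blue squares) on each autosome, joined by lines. The circle is above the square on 18 of 19 chromosomes; chromosome 16 is the exception.

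Distances to boundaries and region widths differed between the classes too. Summits at 2 or more genes lay a median of 201 bp from their nearest boundary and 496 bp from the second, whereas summits at exactly 1 gene lay 375 bp from theirs. Within 100 bp of a boundary the medians were 29.6 (n = 1255) against 21.9 (n = 4699), from 100 to 200 bp 18.8 against 18.3, and from 500 to 600 bp 6.98 against 6.98. The order was the other way from 200 to 300 bp, with 10.2 (n = 498) against 11.8 (n = 2332), and from 700 to 900 bp. With summits at exactly 1 gene reweighted to the same distances their median was 12.3 and the ratio 1.10. The regions were also wider, with medians of 1643 bp against 1448.5 bp, and reweighting by width gave 1.22. For start-to-start against single-start summits, the same reweightings gave 1.20 by distance and 1.31 by width. Within the 607 regions that held both kinds of summit, the stronger summit was the one at 2 or more genes in 408 (67.2%, 63.4 to 70.8%), the one at exactly 1 gene in 198, and in 1 they were equal. At the limit of the rule, 372 summits whose second gene lay 901 to 1000 bp away had a median of 7.82, and 361 whose second gene lay 1001 to 1100 bp away had 7.46.

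Summits were also denser there. The stretches within 1 kb of 2 or more genes covered 5.64 Mb and held 774.7 summits per Mb, against 379.4 per Mb in 68.8 Mb near exactly 1 gene, a ratio of 2.04 (1.98 to 2.11). Counted as regions by their highest summit, the densities were 330.2 and 176.5 per Mb, a ratio of 1.87. The first stretches have boundaries of 2 or more genes in reach and the others of 1. The ratios make no allowance for this, so they do not show an excess per boundary.

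Seen by gene pair, 4703 pairs of protein-coding genes had boundaries at most 2000 bp apart, and 2171 of them (46.2%) held a summit within 1 kb of both genes. Of these, 704 pairs held 1 such summit, 705 held 2 and 762 held 3 or more, up to 7. The share depended on chromosome 18, without which 50.5% of 4246 pairs held such a summit. Start-to-start pairs less than 500 bp apart were the most often occupied, 749 of 787 (95.2%, 93.4 to 96.5%), against 7143 of 13133 lone starts (54.4%, 53.5 to 55.2%), that is, starts with no other gene's boundary within 2000 bp. Their highest summit had a median fold of 40.7 where there was any, against 25.7 at lone starts, and reached 38.0 in 51.2% of pairs against 19.4% of lone starts. Start-to-end pairs that close were occupied in 220 of 316 cases (69.6%) and end-to-end pairs in 161 of 521 (30.9%), against 1693 of 12885 lone ends (13.1%). Every combination of genes counts as a pair. Genes that share an end, as in the Ugt1a locus, therefore give several end-to-end pairs with the same summits, and intervals over pairs are too narrow. A pair has 2 boundaries and a lone start or end has 1. The shares and highest folds make no allowance for this, so they do not show an excess per boundary. Lone starts include many receptor and predicted genes. Without olfactory, vomeronasal and predicted genes, a choice made after the values were seen, the shares were 96.1% of 713 start-to-start pairs and 63.6% of 10906 lone starts. Occupancy was lower where boundaries were 1000 to 2000 bp apart, at 36.4% of start-to-start, 18.3% of start-to-end and 11.6% of end-to-end pairs, where the stretch within 1 kb of both genes is also shortest.

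**Figure D3:**
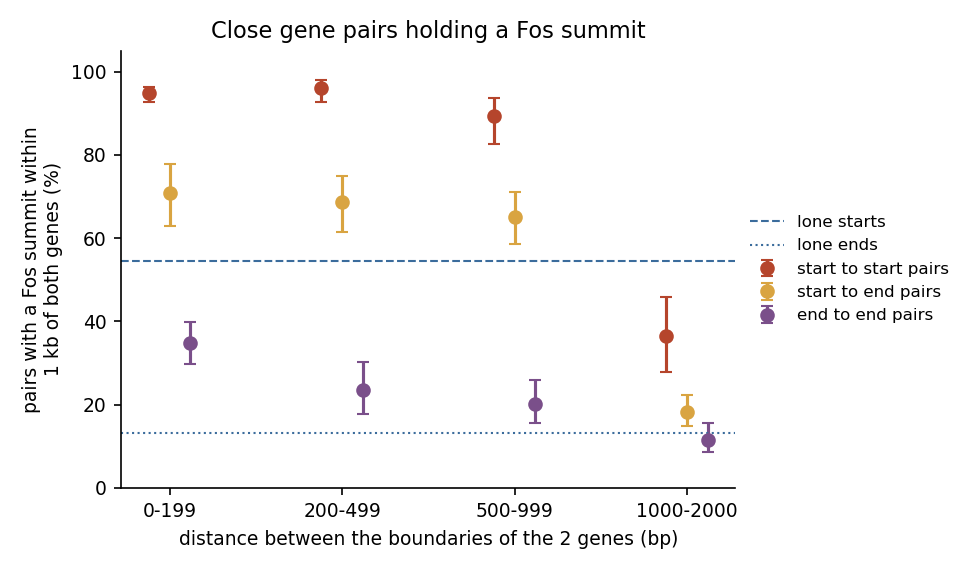
Share of close gene pairs with a Fos summit within 1 kb of both genes (percent, with 95% Wilson intervals) by the distance between their boundaries and their arrangement. The dashed and dotted lines give lone starts (54.4%) and lone ends (13.1%); start-to-start pairs lie far above lone starts up to 1000 bp and below them beyond.

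In divergent pairs with a gap between the starts, folds were higher inside the gap than outside it. Of these summits, 213 lay inside, with a median fold of 50.8 and 61.5% at 38.0 or more, against 1120 summits beyond either start, with a median of 15.2 and 22.7%. Among summits within 100 bp of a start the medians were 56.6 inside (n = 136) and 33.9 beyond (n = 280), and from 100 to 200 bp 40.2 (n = 55) and 20.0 (n = 217). In gaps of 1000 to 2000 bp the 14 summits inside had a median of 10.8. By the rule of 1 kb to both starts, no summit can lie beyond a start there. Divergent pairs with a gap gave 1333 summits with a median of 18.3, those whose first bases overlap gave 734 with 14.8, and same-strand starts gave 67 with 15.2. By distance between the starts, the medians were 15.6 below 100 bp, 16.5 from 100 to 200 bp, 20.4 from 200 to 500 bp, 16.5 from 500 to 1000 bp and 10.3 from 1000 to 2000 bp. Around the 1040 starts of divergent pairs less than 500 bp apart there were 257.7 summits per 100 starts, 54.7% of them upstream, against 122.9 per 100 around 13133 lone starts, 42.5% of them upstream. A summit within 1 kb of both starts of a pair counts for each, and with every summit counted once there were 132.3 per 100 divergent starts against 122.9 per 100 lone starts. A shared summit outside the pair is upstream of 1 start and downstream of the other by construction. The upstream shares of divergent and lone starts therefore cannot be compared. In the 100 bp just upstream of the start the median fold was 48.2 at divergent starts and 26.2 at lone starts. Beyond 500 bp into the gene the medians of both were between 5.65 and 7.46.

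**Figure D4:**
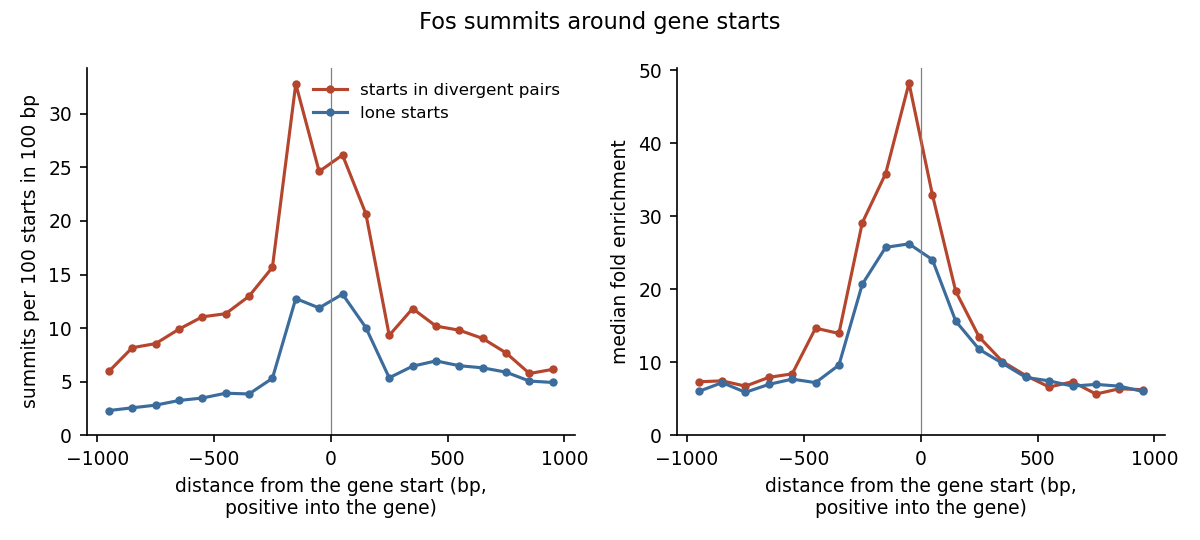
Fos summits by distance from the gene start (bp, positive into the gene) in bins of 100 bp: summits per 100 starts on the left and their median fold on the right, for divergent pairs less than 500 bp apart (red) and lone starts (blue). A summit near both starts of a pair is counted for each, which raises the red density. Both folds peak around the start, with a median of 48.2 against 26.2 in the bin just upstream.

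The strongest single site lay between Cdca2, whose product brings a protein phosphatase to chromatin, and Kctd9 (chr14:67715082-67717248). Its 3 summits had folds of 62.5, 375.2 and 52.4, and the middle one carried 1559 fragments (1483 to 1638). Next came Ubxn6 and Hdgfl2 at 299.7, with only 1 other summit, of 10 fragments, near both genes. Dstn, which encodes the actin-severing protein destrin, shares a divergent promoter with the lens filament gene Bfsp1, and its summits had folds of 291.0, 160.9 and 7.46. Uqcrq, a subunit of respiratory complex III, and the oocyte growth factor gene Gdf9 have overlapping spans with boundaries 57 bp apart, and summits of 287.4 and 37.3. Tbc1d17 and Akt1s1, which encodes an inhibitor of the mTORC1 kinase complex, had 4 summits from 23.3 to 281.4. Several of these pairs join a broadly used gene to a gene known from another tissue, and the signal at the shared boundary cannot be assigned to either.

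Further sites of the top 10 regions lay at Eif6, a factor of ribosome assembly, beside BC029722 (271.1), at Atraid beside the vitamin transporter gene Slc5a6 (249.7), and at Fam160a2 beside Cnga4, a channel subunit of olfactory neurons (245.1). A pair of predicted models, LOC108167694 and Gm20783, held 5 summits of 61.3 to 257.9. The next start-to-start sites were Usp20 with BC005624 (230.9), Dcaf6 with the pyruvate carrier gene Mpc2 (228.7 and 175.8) and Tom1l2 with Drc3 (225.4, 94.5, 12.7 and 6.25). Among start-to-end sites the highest not yet named were Abtb1 with Podxl2 (240.3, 4 bp from the start of Abtb1), Esrra with the sperm channel gene Catsperz (185.5, 36 bp from the start of Esrra, a nuclear receptor gene of energy metabolism) and Cactin with Pip5k1c (181.6). The highest end-to-end site was in the Ugt1a locus (275.4, described next), followed by 126.8 at Tuba4a and Stk16, 118.1 at Coa3 and Wnk4 and 117.1 at Trpt1 and Fermt3. Summits close to the median were those of Ftsj3 with the proteasome gene Psmc5, where 4 summits had folds of 3.85 to 14.9, and of Atp5h with Kctd2, where 3 had 8.18 to 18.3.

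The Ugt1a locus held the most genes per summit. Its UDP-glucuronosyltransferases, enzymes that conjugate bilirubin and drugs, have separate starts and end together, so 9 annotated genes share nearly the same end on chromosome 1. Within 1 kb of that end, summits with 9 genes had folds of 10.3, 7.46 and 7.46, and 616 bp from the end of Ugt1a1 a summit with 7 genes had 275.4 (1144 fragments). These are 7 or 9 gene names for 1 place. In all, 100 summits in 52 regions had 3 or more genes, with a median fold of 13.6 (9.38 to 19.5), close to the 13.5 of summits with 2 genes.

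Pairs known as close or divergent neighbours were examined by name. Hspd1 and Hspe1, which encode the mitochondrial chaperonin and its cofactor, had 3 summits of 13.7, 100.8 and 37.0 around starts 95 bp apart, and the highest carried 418 fragments (379 to 460). Atm, the DNA damage kinase, and Npat, a coactivator of histone genes, start 61 bp apart and had 149.4 at 3 bp from the start of Npat, and 18.3. Brca1 and Nbr1 had 4 summits, the highest (116.2) not in their gap but 694 bp from the start of Nbr1. Each of these pairs had its highest fold above 38.0, unlike some of the pairs that follow.

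The purine synthesis genes Ppat and Paics had a highest fold of 73.1, and Prkdc and Mcm4, of DNA end joining and replication licensing, had 65.7. Surf1 and Surf2 had 91.2, and Mrps12 and Sars2, both of mitochondrial translation, had 57.7. Tap1 and Psmb9, which serve antigen presentation and are induced together by interferon, had 4 summits of 7.22 to 55.1, the highest 39 bp from the start of Tap1. Trp53 and Wrap53 had 5 summits of 4.09 to 51.7. Lower values were found at Med22 and Rpl7a (32.5), at Tk1 and Afmid (7.22) and at Tcp1 and Mrpl18 (6.98, with only 28 fragments). No summit was listed near both genes of Col4a1 and Col4a2, collagens of basement membrane that start 84 bp apart, or of Tbp and Psmb1, whose boundaries are 1612 bp apart. Ercc1 and Fosb (33949 bp apart) and Krt8 and Krt18 (23874 bp) were too far apart for the rule. Of the 16 pairs near enough, 14 held a summit. Those with a known arrangement were start-to-start, and of all start-to-start pairs within 2000 bp 88.3% held 1 or more.

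Gene groups were counted both over all their members and over those with a close neighbour. Over all autosomal protein-coding genes, 3778 (18.3%) had a summit shared with another gene, which is 55.0% of the 6863 genes with another boundary within 2000 bp. Of 78 mitochondrial ribosome genes, 40 had a shared summit (51.3% of all, 80.0% of those with a close neighbour), for example Mrps18b with Ppp1r10 at 181.4 and Mrpl2 with Klc4 at 121.7. The cytosolic ribosome had 27 of 78, led by Rpl18 with Fam83e at 160.4, and the Nduf and Cox genes of the respiratory chain had 20 of 54, led by Ndufa11 with Vmac at 88.3. Proteasome genes had 14 of 47, among them Psme2, an activator subunit induced by interferon, with Rnf31 at 179.0. Mitochondrial carriers had 13 of 43, with Slc25a41 and Khsrp at 183.0. Among genes with a close neighbour, the shares were 67.5% (52.0 to 79.9%) for the cytosolic ribosome and 62.5% (45.3 to 77.1%) for Nduf and Cox. They were 58.3% (38.8 to 75.5%) for the proteasome and 68.4% (46.0 to 84.6%) for the carriers. Each of these intervals includes the 55.0% of all such genes.

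DNA repair and replication genes had 20 of 45 with a shared summit (44.4%, 30.9 to 58.8%), which is 64.5% (46.9 to 78.9%) of those with a close neighbour, an interval that includes the 55.0% of all such genes. The median of their highest shared folds was 65.7, against 31.5 over all genes with a shared summit, and Xpc with Tmem43 (191.2) and Pcna with Cds2 (133.5) stood near the top with Atm. That 65.7 is the fold of a single summit shared by Mcm4 and Prkdc and counted for each gene. Replication-dependent histone genes had 39 of 58 (79.6% of the 49 with a close neighbour), at a median highest fold of 25.3 and a maximum of 61.3 at H2ac6 with H2bc4. Hox genes, which lie in dense clusters in the same direction, had 8 of 39 (20.5%, near the 18.3% of all genes) and at most 27.9. Of 23 claudin genes 5 had a shared summit, at most 18.3 (Cldn15 with Fis1), and of 53 keratins only Krt8 and its neighbour Krt78 had 1, at 146.5. Only 7 of the claudins and 8 of the keratins have a close neighbour. The genes of AP-1 and the small Maf proteins had 3 of 16 (18.8%, also near it), Jund with Iqcn (24.3), Mafg with Sirt7 (12.0) and Fosl1 with Ccdc85b (4.81). None of 1104 olfactory receptor genes and none of 67 protocadherin genes had a shared summit. Another boundary lay within 2000 bp for only 19 of the olfactory receptor genes, but for 43 of the protocadherins. Group counts read pairs within a group once for each gene, and the symbol patterns behind them were trimmed after their members were seen.

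The 38 start-to-start pairs less than 500 bp apart without a shared summit were examined last, and the names given were chosen after that list was seen. Beside Col4a1 and Col4a2 they included Gabra4 and Gabrb1, subunits of a neuronal receptor, the testis histones H2bc1 and H2ac1, Triml1 and Triml2, the synaptic zinc transporter gene Slc30a3 with Dnajc5g, and the protease inhibitor genes Wfdc8 and Wfdc6b. The list also held Rnf151 with Rps2, a ribosomal protein gene, and Ctnnd1, the catenin p120 of adherens junctions, with Btbd18.

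Promoter windows as printed above were searched on both strands in 20062 windows of 16436 autosomal protein-coding genes. A window was assigned by its strongest summit, to 2 or more genes in 1804 cases and to exactly 1 gene in 5639, and 11395 windows held no summit. The remaining windows had a strongest summit with no protein-coding gene boundary within 1 kb. They count among all windows only, and their shares are not given. Both windows of a divergent pair can overlap and carry the same match. The letters were TGANTCA for AP-1, TGACGTCA for CRE, CCGGAA for ETS factors, CCAAT for the CCAAT box, GGGCGG for the GC box, TATAAA for the TATA box, and the palindromic core of the NRF1 motif. No motif contains another, though matches may share bases. Forms of TGANTCA with different middle bases, such as TGAATCA in the Tom1l2 window, were counted together and not separated. TGANTCA was found in 70 of the 1804 windows with a summit at 2 or more genes (3.88%, 3.08 to 4.87%), in 5.62% of those with a summit at exactly 1 gene and in 8.20% of those with none, beside 7.06% of all windows. TGACGTCA was found in 4.43%, 3.33% and 1.51%, beside 2.30% of all.

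The ETS letters differed most between windows with a summit at 2 or more genes and at exactly 1 gene. They were found in 42.8% (40.5 to 45.1%) of windows with a summit at 2 or more genes, 27.2% (26.1 to 28.4%) at exactly 1 gene and 11.1% of windows with none, beside 19.1% of all. For the GC box the shares were 68.9%, 69.2% and 31.3%, beside 47.0% of all, and for the NRF1 motif 2.61%, 2.25% and 0.711%, beside 1.34%. CCAAT differed little, with 41.5%, 40.3% and 36.5%, beside 38.1%. The TATA letters ran the other way, with 4.88%, 7.38% and 17.2%, beside 12.7%. The median GC content was 62.3%, 62.0% and 51.7% in that order, nearly equal in both classes with a summit and lower in windows with none, and its part in the shares was not tested. Among windows with a summit at 2 or more genes, those with CCAAT had a median fold of 44.7 and those without it 27.7, whereas the medians were 35.0 with and 35.4 without TGANTCA. With these windows split into 3 equal bins by fold, TGANTCA was in 4.32% of the strongest bin and 3.99% of the weakest, while at exactly 1 gene it was in 7.34% and 4.79%. Where a window held both, the summit lay a median of 71 bp from the TGANTCA match, and within 50 bp in 27 of 70 windows (38.6%), against a median of 76 bp and 94 of 317 windows (29.7%) at exactly 1 gene.

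**Figure D5:**
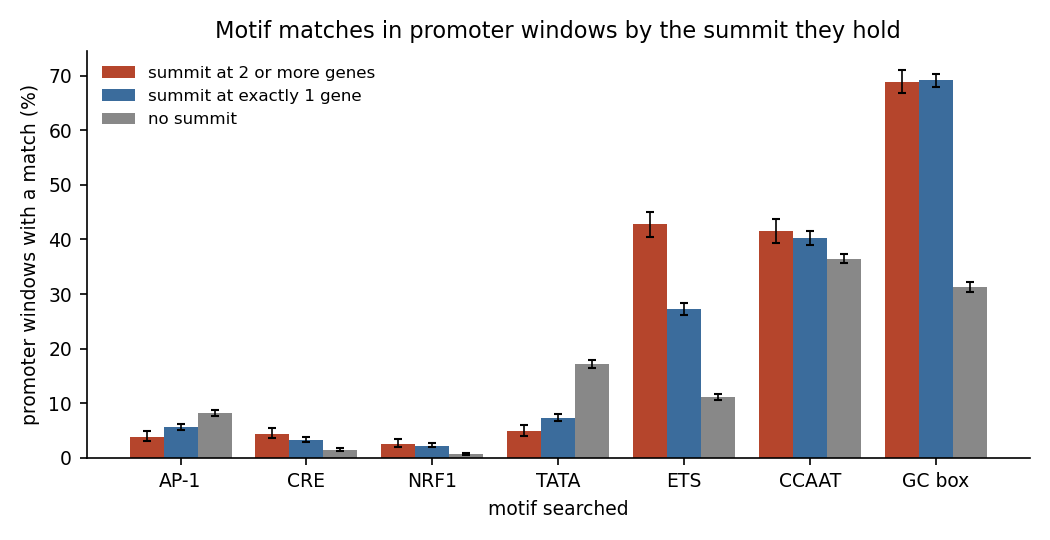
Share of promoter windows (percent, with 95% Wilson intervals) with a match to each motif, for windows whose strongest summit was at 2 or more genes (red), at exactly 1 gene (blue) or that held no summit (grey). The ETS bars differ most between red (42.8%) and blue (27.2%); the AP-1 bars are lowest in red (3.88%).

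Other annotation at the same summits was counted as well. A lncRNA boundary lay within 1 kb of 148 summits at 2 or more genes (3.39%), against 3014 at exactly 1 gene (11.6%). The gene spans overlapped at 1417 of the 4366 summits, with a median fold of 12.5, and were apart at 2949, with 14.2. A predicted or clone-named gene was among the genes of 392 summits (8.98%), whose median was 14.6, against 13.5 at the others.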

How the data were processed

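The submitters' processing notes name Bowtie2, MACS2 and mm10 without versions or settings. Which of the 4 libraries the list holds was not stated. The deposited narrowPeak list holds, for each summit, the authors' fold enrichment, a linear ratio over background. It also holds the authors' score and −log10 q-value, the lowest of which was 1.80. These values rank and filter summits inside the list and nothing else. Depth per library is unknown.

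Gene spans came from a RefSeq table of GRCm38.p6, and the direction of a gene from the strand of its promoter window, where one was used here. No window of chromosome 18 was used. Positions are 1-based. For a summit, each gene's nearest boundary was taken, so a short gene can be near by both. The summit set, gene lists and named pairs were chosen with earlier results of these data known. Named sites were the 10 regions with the highest fold, the 3 highest of each arrangement not yet named, the 3 summits with most genes, the 2 nearest the median and the listed pairs, some of which are not reported here. The Ddit3, Myl12a and Slx4ip windows and the pairs without a summit fall outside that rule and were chosen after their values were seen.

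Medians have order-statistic intervals, shares Wilson intervals, and pileups exact Poisson intervals, all at 95% and for counting error only, since copied fragments are not independent molecules. Densities were counted from base 3000001 of each chromosome. Fold steps deviated from whole numbers by at most 7.75e-05 steps. The computation was checked on simulated data. Python 3.11.15, numpy 2.4.6, pandas 2.3.3, scipy 1.17.1 and matplotlib 3.10.9 were used. Alternatives were windows of 500 and 2000 bp, 1 summit per region, stricter q-values, gene filters and leaving out each chromosome.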

Additional observations from a re-analysis of the deposited data

Results flagged for a closer look

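Chromosome X lies outside the comparisons, and 54 of its 2384 summits were at 2 or more protein-coding genes (2.27%). Their median fold was 19.0 and the highest 197.2, against a median of 9.62 for 536 summits at exactly 1 gene. They were set aside as a signal in data that the comparisons do not use.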

How the results depend on the processing

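No alternative turned a direction round. Other than in the values that left out a chromosome, 18 stayed near the reported value and 34 moved. The reported values were a median fold ratio of 1.37, a difference in strong share (the top 10% by fold of the summits kept) of 7.00 percentage points, a density ratio of 2.04, 46.2% of pairs, 4366 summits and a ratio of 1.92 between start-to-start summits and start-to-end and end-to-end summits together. With a 500 bp window in place of 1 kb, the median fold ratio was 1.63, the difference in strong share 10.6 percentage points, the density ratio 2.29, the share of pairs 43.9%, the number of summits 2207 and the start-to-start ratio 2.45. With 2000 bp the first 5 were 1.18, 3.97, 1.82, 49.6% and 7993. With 1 summit per region the 6 were 1.79, 12.5, 1.87, 39.7%, 1861 and 2.92. With −log10 q of at least 5 the strong-share difference was 5.67, the density ratio 2.16, the share of pairs 43.3% and the start-to-start ratio 1.58. At 10 or more the median ratio was 1.27 and these values 4.74, 2.24, 40.4% and 1.37. Without regions wider than 3000 bp 41.6% of pairs were occupied. Without predicted or clone-named genes the density ratio was 1.95, and without genes that overlap another it was 1.95 with 2063 summits. With strong summits taken as the top 5% or 20%, the difference was 4.27 and 8.88. Reweighting gave median ratios of 1.10 by distance and 1.22 by region width, so over this set the median ratio ran between 1.10 and 1.79. The cause of these shifts was not tested, except that a wider window holds more summits by construction.

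In leave-one-out runs over the 19 chromosomes, the median fold ratio was 1.34 to 1.41, the strong-share difference 6.38 to 7.57, the density ratio 2.01 to 2.07, the share of pairs 45.4 to 50.5% (the highest without chromosome 18), the number of summits 3905 to 4304 and the start-to-start ratio 1.89 to 2.00. No paired analysis was possible because the list has no column per library and no result comes from a test. Pileups as low as at the median summit, 55 fragments (41.4 to 71.6), do not separate folds that differ by less than about that interval.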
